A study of Mus musculus with 2 samples.

Results

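The 10 genes described here, Jun, Junb, Jund, Fos, Fosb, Egr1, Atf3, Ier2, Nr4a1 and Btg2, belong to the immediate-early response. They were taken by gene symbol from the 27998 genes that both libraries list, and all 10 carried counts. Their transcripts were counted in single cells of peripheral retina from mice at postnatal day 8, dissected over the domain where the αCre driver is active. The DKO_Skp2het library came from αCre, Rb f/f, p107-/-, Skp2+/- mice, which the labels call tumor-resistant. The DKO library came from αCre, Rb f/f, p107-/- mice, called tumor-prone. Thus both carry Cre, floxed Rb and the loss of p107, and they differ by the loss of 1 copy of Skp2. Cre acts only in the part of the retina where its driver is active, and no library with intact Rb and p107 is among the samples. How many animals went into each library is not given in the sources used here. With 1 library per genotype no difference between the libraries could be tested, and the intervals given are 95% intervals that cover counting error only.

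Immediate-early genes are transcribed within minutes of a stimulus without new protein synthesis, through transcription factors that are already in the cell and are switched on by kinase cascades or cAMP. Fos and Jun family proteins pair to form the transcription factor AP-1, and Egr1, Atf3 and Nr4a1 encode further transcription factors. The same genes respond to the enzymes and warmth used to dissociate tissue, and in the retina they are also known to be induced in Müller glia, the radial glia that support the neurons, after injury or growth factor exposure. The tissue was digested with papain at a warm temperature before capture, so the levels below are those after dissociation.

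The DKO_Skp2het library held 5196 barcodes with a median of 3874 UMIs (unique molecular identifiers, each standing for 1 captured transcript), against 3621 barcodes with a median of 4939 UMIs in DKO. After filtering, 4978 DKO_Skp2het cells and 3515 DKO cells were kept, with median mitochondrial shares of 3.52% and 3.33%. The libraries shared 29 kept barcodes. Clustering without the 10 members, other immediate-early genes, heat shock genes or cell cycle genes gave 29 clusters, of which those matching fixed markers are called by a cell type with the ending "-like" and the others by number. Classes with at least 20 cells in each library numbered 17. Müller glia-like cells were 616 in DKO_Skp2het and 420 in DKO, in cluster 3, where 8 of 10 Müller markers lay above 2-fold, and the small cluster 16, where 10 of 10 did. Retinal progenitor-like cells, which also carried many proliferation transcripts, numbered 467 and 510. In this cluster 2, 6 of 9 progenitor markers lay above 2-fold. The mean log2 fold of its markers was 1.16, against 1.41 in cluster 3 and 3.01 in cluster 16 for the Müller markers. Levels are CPM, the gene's share of all UMIs summed over the cells of a class, on the usual CPM scale. Since the kit counts the 3′ ends of transcripts, levels are compared between classes and libraries and not between genes.

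The promoters of the members show which signal-responsive elements lie next to their RefSeq start sites. RefSeq windows from 250 bases before to 50 bases after the start were available for 8 members on GRCm38.p6, and those of Fos, Nr4a1, Btg2 and Jun are printed because they carry separate copies of an element (Nr4a1 and Fos), the full palindrome (Btg2) or none of the elements (Jun). Fos (chr12:85473640-85473939, plus strand), Nr4a1 (chr15:101266596-101266895, plus strand), Btg2 (chr1:134079106-134079405, minus strand) and Jun (chr4:95052173-95052472, minus strand) are given 5′ to 3′, with capitals marking the searched elements on either strand. For Nr4a1 and Atf3 the RefSeq start lies inside the annotated gene, well past its first base, and for Jund it lies before it, so these windows describe another start than the one annotated. Smaller shifts are present for Junb and Btg2, whose RefSeq start lies before the annotated gene, and for Fosb, where it lies just inside. The elements were TGACGTCA, the full cAMP response element, TGACG, its core, which lies within it, TATAAA, the TATA box, TGANTCA, the AP-1 element, and the CArG box, bound by the serum response factor.
Fos: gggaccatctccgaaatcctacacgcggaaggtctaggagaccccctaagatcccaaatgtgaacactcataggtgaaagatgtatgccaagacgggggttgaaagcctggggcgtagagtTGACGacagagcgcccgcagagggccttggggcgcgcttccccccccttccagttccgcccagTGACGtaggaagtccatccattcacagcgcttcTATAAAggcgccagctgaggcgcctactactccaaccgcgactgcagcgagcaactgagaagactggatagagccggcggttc
Nr4a1: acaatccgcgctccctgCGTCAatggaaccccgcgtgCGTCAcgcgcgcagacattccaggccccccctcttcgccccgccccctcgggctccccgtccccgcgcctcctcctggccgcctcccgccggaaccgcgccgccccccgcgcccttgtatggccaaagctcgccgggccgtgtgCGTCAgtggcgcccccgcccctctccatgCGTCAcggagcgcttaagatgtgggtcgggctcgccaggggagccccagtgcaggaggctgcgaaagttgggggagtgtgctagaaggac
Btg2: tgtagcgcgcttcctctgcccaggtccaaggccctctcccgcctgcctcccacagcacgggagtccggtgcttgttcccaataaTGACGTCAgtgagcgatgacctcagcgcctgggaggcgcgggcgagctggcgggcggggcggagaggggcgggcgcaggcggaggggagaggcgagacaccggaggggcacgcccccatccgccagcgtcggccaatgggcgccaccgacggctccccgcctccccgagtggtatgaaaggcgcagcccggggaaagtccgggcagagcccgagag
Jun: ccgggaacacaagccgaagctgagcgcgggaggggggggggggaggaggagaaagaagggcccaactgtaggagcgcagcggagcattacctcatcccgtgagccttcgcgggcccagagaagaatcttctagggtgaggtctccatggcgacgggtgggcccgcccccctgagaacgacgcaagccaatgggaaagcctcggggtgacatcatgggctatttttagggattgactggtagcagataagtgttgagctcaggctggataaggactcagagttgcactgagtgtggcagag
The TGACG core was present in 6 of the 8 member windows (Fos, Fosb, Junb, Atf3, Nr4a1 and Btg2), and in 20.8% of 32851 promoter windows. Nr4a1 had 4 copies, starting 233, 213, 69 and 40 bases before its internal RefSeq start, and Fos had 2, at 129 and 66 bases. Btg2 alone of the 8 held the full palindrome, 166 bases before its start, an element found in 1.79% of all windows. A TATA box was found in Fos, 33 bases before the start. TATAAA also occurred in Junb, 1 base after its RefSeq start, which is still before the start of the annotated gene. Of all windows, 13.6% held TATAAA. No member window held the AP-1 element or the CArG box in these letters, which 7.81% and 1.63% of all windows did, and the Jun window held none of the elements. Sequence farther away was not searched, and a match of letters does not show that a factor binds.

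On GRCm38, Fos (ENSMUSG00000021250) lies on chromosome 12 at 85473890 to 85477273 and Fosb (ENSMUSG00000003545) on chromosome 7 at 19302696 to 19310051. Jun (ENSMUSG00000052684) lies on chromosome 4 at 95049034 to 95052222. Junb (ENSMUSG00000052837), Jund (ENSMUSG00000071076) and Ier2 (ENSMUSG00000053560) are all on chromosome 8, at 84974484 to 84978718, 70698949 to 70700616 and 84661331 to 84662852. Nr4a1 (ENSMUSG00000023034) is on chromosome 15 at 101254269 to 101274795. Atf3 (ENSMUSG00000026628) and Btg2 (ENSMUSG00000020423) are on chromosome 1, at 191170296 to 191218039 and 134075170 to 134079120, and Egr1 (ENSMUSG00000038418) is on chromosome 18. The reads counted by the kit come from near the 3′ end of each gene.

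Across the 17 classes Müller glia-like cells had the highest mean level of the libraries for Jun, Jund, Fos, Fosb, Ier2 and Nr4a1, and retinal progenitor-like cells for Egr1. Junb and Atf3 were highest in microglia-like cells and Btg2 in unnamed cluster 4. Clusters with fewer than 20 cells in a library were left out of this ranking. Astrocyte-like cells, 18 in each library, stood above the Müller glia-like class in both libraries for Jun, Jund, Fos, Fosb, Ier2 and Nr4a1. Fos stood there at 2944 CPM in DKO_Skp2het and 3865 CPM in DKO, and Junb at 1712 and 1856 CPM. Btg2 stood at 1442 and 1441 CPM there, and at 2257 and 2220 CPM in unnamed cluster 28, with 13 and 8 cells. Fos, the rapidly induced partner in AP-1, stood at 2925 CPM in Müller glia-like cells of DKO_Skp2het and 3182 CPM in those of DKO. In retinal progenitor-like cells Fos stood at 2888 and 3179 CPM, so these classes were not separated from each other. Separated here means that both library values of a class lie above both values of the class next in order. The libraries differ in genotype, so this is no replicate check. By this measure the Müller glia-like level was separated from the next class for Jund and Nr4a1, but not for Jun, Fosb or Ier2. Next came unnamed cluster 1, led by the Notch target Hes5 and by Sox8, at 1565 CPM in DKO_Skp2het and 1894 CPM in DKO, and cone-like cells at 1286 and 1098 CPM. Rod-like cells had 647 and 899 CPM. The lowest class was unnamed cluster 6, led by Fabp7 and Rgr, at 79.4 and 106.8 CPM, and the mean of the libraries differed 32.8-fold between the highest and lowest class. Horizontal-like cells, with only 17 and 12 cells, had 68.7 and 92.4 CPM. Fosb, a close relative of Fos, followed nearly the same order, with 486 and 459 CPM in Müller glia-like cells, 412 and 467 CPM in progenitor-like cells, and 7.08 and 14.5 CPM in cluster 6, a 43.7-fold range.

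The Jun genes differed in how widely they were spread. Jun, the main Fos partner, had 1350 CPM in DKO_Skp2het and 1069 CPM in DKO Müller glia-like cells, and 1019 and 811 CPM in progenitor-like cells. Between these classes stood unnamed cluster 13, at 1175 and 845 CPM, where Fos was only 537 and 389 CPM. The lowest Jun level was in bipolar-like cells, at 57.9 and 78.9 CPM. Junb, a Jun relative known for weaker activation of AP-1 targets, was as high in microglia-like cells (445 CPM in DKO_Skp2het and 479 CPM in DKO) as in Müller glia-like cells (492 and 417 CPM), which were not separated. Jund, the most constantly transcribed of the 3, ranged only 3.98-fold over classes, with 1174 and 1100 CPM in Müller glia-like cells and 297 and 275 CPM in unnamed cluster 24.

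Of the other transcription factor genes, Egr1, an early growth response factor downstream of MAP kinase, was highest of the 17 classes in progenitor-like cells. Its level there was 1266 CPM in DKO_Skp2het and 1185 CPM in DKO. In Müller glia-like cells Egr1 stood at 1086 and 993 CPM, which was separated from the progenitor-like level, and in cone-like cells at 872 and 1010 CPM. Nr4a1, an orphan nuclear receptor, was highest of the 17 classes in Müller glia-like cells, at 146 and 106 CPM. Cone-like cells followed at 75.0 and 76.9 CPM. At the low end, Nr4a1 stood at 4.72 and 4.93 CPM in bipolar-like cells, from 4 UMIs each. Unnamed cluster 17 had 8.79 CPM in DKO_Skp2het and 0 UMIs in DKO, where 3 counts would have been 9.88 CPM, so the low classes could not be ordered.

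Atf3, a stress-induced factor of the ATF family, had the narrowest distribution. Of the 17 classes it was highest in microglia-like cells, at 242 CPM in DKO_Skp2het and 138 CPM in DKO. Cluster 13 followed at 133 and 86.0 CPM, and Müller glia-like cells at 50.1 and 58.0 CPM. The Müller glia-like clusters were unlike, with Atf3 at 167 and 214 CPM in cluster 16 and 28.4 and 40.7 CPM in cluster 3. Astrocyte-like cells, outside this ranking, had 185 and 48.2 CPM. Atf3 was not detected in unnamed clusters 17 and 22 of either library, where 3 counts would have been 6.60 and 22.1 CPM in DKO_Skp2het and 9.88 and 23.2 CPM in DKO. Of the 17 classes Ier2, a small nuclear immediate-early protein, was highest in Müller glia-like cells, at 846 and 690 CPM. Progenitor-like cells followed at 756 and 672 CPM, which was not separated. Among the same classes Ier2 was lowest in amacrine-like cells, at 68.3 and 95.8 CPM. Btg2, an antiproliferative gene that marks neurogenic divisions and is also a p53 target, had an order of its own. Its top classes were unnamed cluster 4 (1221 CPM in DKO_Skp2het and 796 CPM in DKO), unnamed cluster 9 (1070 and 860 CPM), cluster 6 (1054 and 866 CPM) and neurogenic precursor-like cells (1113 and 783 CPM). Thus cluster 6, which was the lowest class for Fos, was among the highest for Btg2. Müller glia-like cells ranked 5th for Btg2, at 1089 and 746 CPM, and none of these neighbours was separated.

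**Figure D1:**
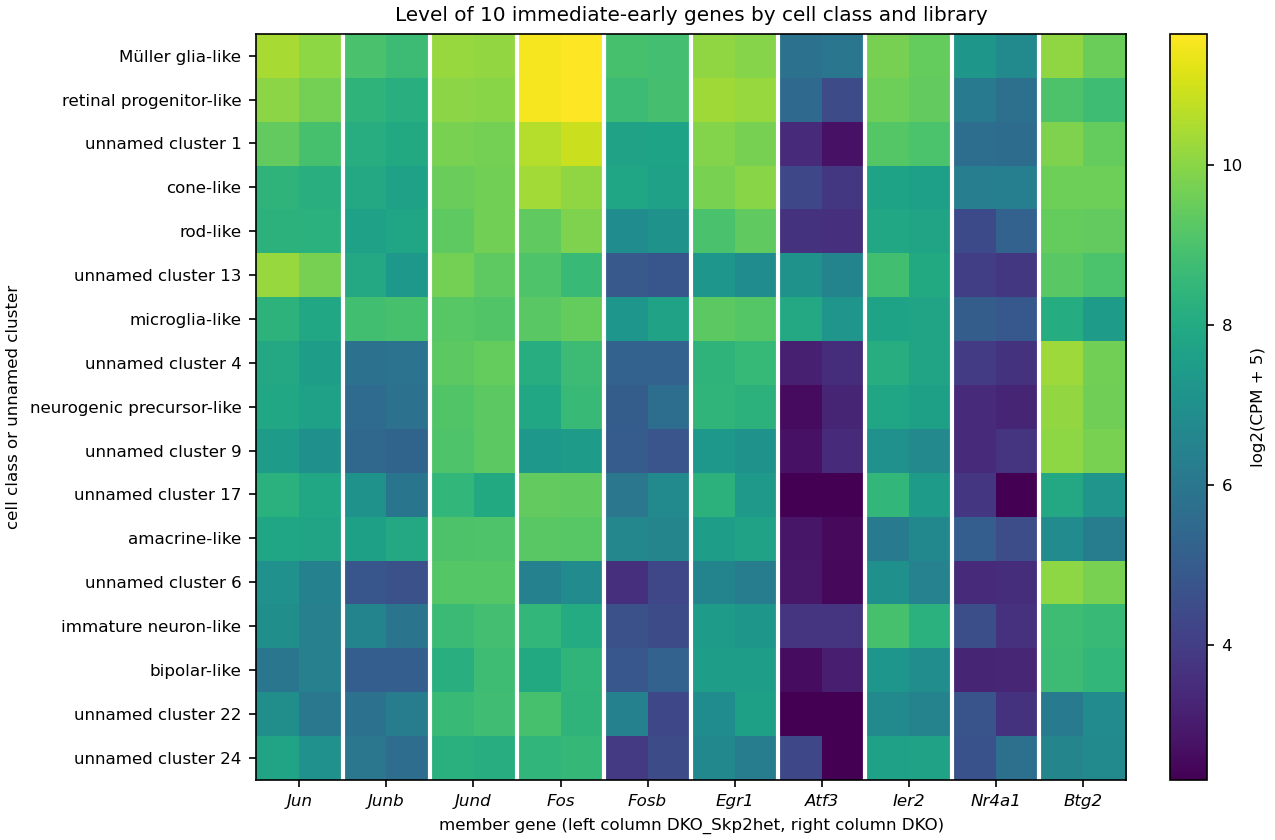
Level of each member as log2(CPM + 5) in the 17 classes with at least 20 cells in each library, ordered by the members' summed level, with DKO_Skp2het in the left column and DKO in the right column of each gene. Fos is brightest in Müller glia-like and retinal progenitor-like cells, at 2925 and 2888 CPM in DKO_Skp2het and 3182 and 3179 CPM in DKO, whereas Btg2 stays bright in the unnamed clusters 4, 6 and 9.

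Müller glia-like cells exceeded all other cells for every member, in both libraries. Fos was 3.52-fold higher in the Müller glia-like cells of DKO_Skp2het (2925 CPM, against 832 CPM in all other cells; interval 3.42 to 3.61). In DKO it was 3.79-fold higher (3182 against 840 CPM; 3.68 to 3.90). The largest ratio was that of Nr4a1, at 5.36 in DKO_Skp2het and 4.92 in DKO. Fosb stood at 4.25 and 3.97. Jun stood at 3.37 and 3.52, Egr1 at 2.31 and 2.49, and Ier2 at 2.32 and 2.45. Junb stood at 492 against 164 CPM in DKO_Skp2het and at 417 against 141 CPM in DKO. Atf3 had ratios of 2.63 and 4.30, from 136 and 114 UMIs. Jund, at 1.85 and 1.71, and Btg2, at 1.48 and 1.36, stayed below 2-fold. Thus 8 of 10 members passed 2-fold in DKO_Skp2het, where 7% of 11305 genes did, and 8 of 10 in DKO, where 7.47% of 11176 genes did. Passing 2-fold lower were 0 of 10 in each, beside 13.7% and 16.1% of all genes. The members' median log2 difference was 1.38 in DKO_Skp2het and 1.65 in DKO, beside -0.07 and -0.11 over all genes. These are descriptions of classes within a library, with no replicate check.

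Other immediate-early genes and MAP kinase feedback genes were also higher in sum in Müller glia-like cells, whereas the heat shock sum was close to that of the other cells. Of 39 measured immediate-early genes that are not members, 15 passed 2-fold higher and 8 passed 2-fold lower in Müller glia-like cells of DKO_Skp2het. Of 37 measured in DKO, 17 and 10 did. Over all genes, 7% passed higher and 13.7% lower in DKO_Skp2het, and 7.47% and 16.1% in DKO. This list thus held genes in both directions. Among the highest were Cyr61, a secreted matrix protein induced by serum and YAP, at 5.75-fold in DKO_Skp2het and 6.69-fold in DKO, and Zfp36, which destabilises short-lived mRNAs, at 5.37-fold and 7.11-fold. Of the growth factor and MAP kinase feedback genes, 9 of 14 passed 2-fold higher in DKO_Skp2het and 8 of 14 in DKO, beside the same shares. The ETS factors Etv4 stood at 5.35-fold and 6.50-fold and Etv5 at 4.25-fold and 4.14-fold. Müller homeostasis genes, which include the retinoid-binding Rlbp1 and the glutamate transporter Slc1a3, summed to 4.09-fold and 4.29-fold, but some of them also named the class. The sum of the heat shock and dissociation stress genes was 1.06-fold in DKO_Skp2het (8119 against 7643 CPM) and 1.08-fold in DKO (7650 against 7082 CPM), with 0 of 20 and 1 of 19 past 2-fold higher. The chaperone cofactor Dnajb1 stood at 1.84-fold in DKO_Skp2het, and the metallothionein Mt1 at 1.81-fold there and 2.31-fold in DKO.

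Over 48 points, which are 24 clusters in each of 2 libraries, the members' summed level had a Pearson correlation of 0.71 with the Müller homeostasis sum, 0.72 with the MAP kinase feedback sum and 0.69 with the other immediate-early genes. It was 0.05 with the heat shock and stress sum and -0.03 with the proliferation sum. The points share libraries and include related clusters, so the values are descriptive. Clusters at similar Müller sums could still differ: microglia-like cells, which share abundant genes such as Apoe with the list, had a member sum of 3473 CPM in DKO_Skp2het and 3281 CPM in DKO at Müller sums of 13868 and 12620 CPM.

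**Figure D2:**
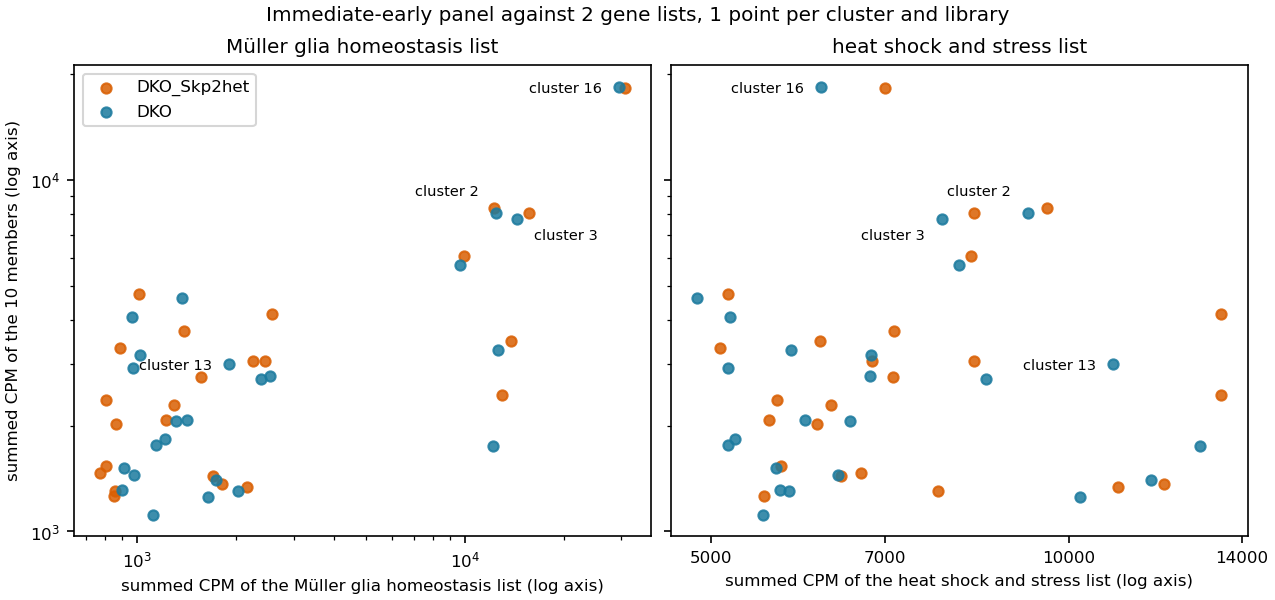
Summed CPM of the 10 members (vertical, log axis) against the summed CPM of the Müller glia homeostasis list (left) and of the heat shock and stress list (right), with 1 point for each cluster with at least 20 cells in each library. Cluster 16 is at the top in both panels, at 18262 CPM in DKO_Skp2het and 18453 CPM in DKO, but lies at the far right only for the glial list.

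Within the Müller glia-like class, the small cluster 16 (80 DKO_Skp2het cells and 39 DKO cells) held the highest level of all clusters in both libraries for 7 members: Jun, Jund, Fos, Fosb, Ier2, Nr4a1 and Btg2. This cluster was led by Prss56, Frzb and Abca8a, and had 803 and 291 CPM of proliferation genes, against 1352 and 1538 CPM in cluster 3. Fos reached 4749 CPM in DKO_Skp2het and 5243 CPM in DKO, against 2586 and 2954 CPM in cluster 3, ratios of 1.84 (1.74 to 1.93) and 1.78 (1.66 to 1.90). Btg2 differed more, with 2810 and 2448 CPM in cluster 16 against 770 and 557 CPM in cluster 3, ratios of 3.65 and 4.40. Atf3 stood at 5.89-fold and 5.26-fold, Fosb at 3.69-fold and 3.201-fold, and Junb at 3.26-fold and 4.58-fold. Egr1 did not follow, at 1.19-fold (1.08 to 1.31) in DKO_Skp2het and 0.979-fold (0.839 to 1.14) in DKO. In all, 8 of 10 members passed 2-fold higher in each library, where 6.7% of genes did in DKO_Skp2het and 6.96% in DKO, and 0 passed 2-fold lower, where 13.9% and 17.4% did. The Müller homeostasis sum was 1.96-fold and 2.04-fold higher in cluster 16, and the heat shock and stress sum 0.842-fold and 0.791-fold. Astrocyte-like cells, 18 in each library, had a member sum of 12691 CPM in DKO_Skp2het and 14348 CPM in DKO.

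Cells inside cluster 3 also differed along the Müller homeostasis list. Each cell was thinned at random to 1500 UMIs and the cells of a library were cut into 4 equal bins by their Müller homeostasis UMIs. From the lowest to the highest bin, the members summed to 6905, 7836, 8348 and 9796 CPM in DKO_Skp2het and to 5833, 7389, 8428 and 8898 CPM in DKO. The intervals of the outer bins did not overlap, at 6547 to 7279 and 9368 to 10239 CPM in DKO_Skp2het, and 5445 to 6242 and 8415 to 9402 CPM in DKO. Binned by heat shock and stress UMIs instead, the sums were 8448, 7960, 8592 and 7886 CPM in DKO_Skp2het and 7076, 7705, 7768 and 7986 CPM in DKO. Thus no order was seen across those bins in DKO_Skp2het. In DKO the sums rose from bin to bin, and the outer intervals, at 6649 to 7525 and 7529 to 8464 CPM, lay just apart. These intervals cover counting error only, so such a small gap does not separate the bins. Binned by proliferation UMIs, the sum was lower at the high end, at 7418 CPM in DKO_Skp2het and 6225 CPM in DKO, against 8821 and 8792 CPM at the low end. Bins of mitochondrial share gave 8259, 7801, 8577 and 8249 CPM in DKO_Skp2het and 6736, 7649, 8204 and 7951 CPM in DKO, where the outer intervals again did not overlap (6319 to 7174 and 7495 to 8428 CPM). In the smaller cluster 16, bins by the Müller list gave 18400, 20467, 21500 and 19400 CPM in DKO_Skp2het, with overlapping outer intervals, and 14800, 17667, 20667 and 23407 CPM in DKO, from 9 or 10 cells each. Thus the order along the glial list was not seen in cluster 16 of DKO_Skp2het. Bins of cluster 16 by total UMIs differed in both libraries, with 23300 CPM in the shallowest and 14600 CPM in the deepest cells of DKO_Skp2het, and 23067 and 15778 CPM in those of DKO; the part of depth was not tested.

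**Figure D3:**
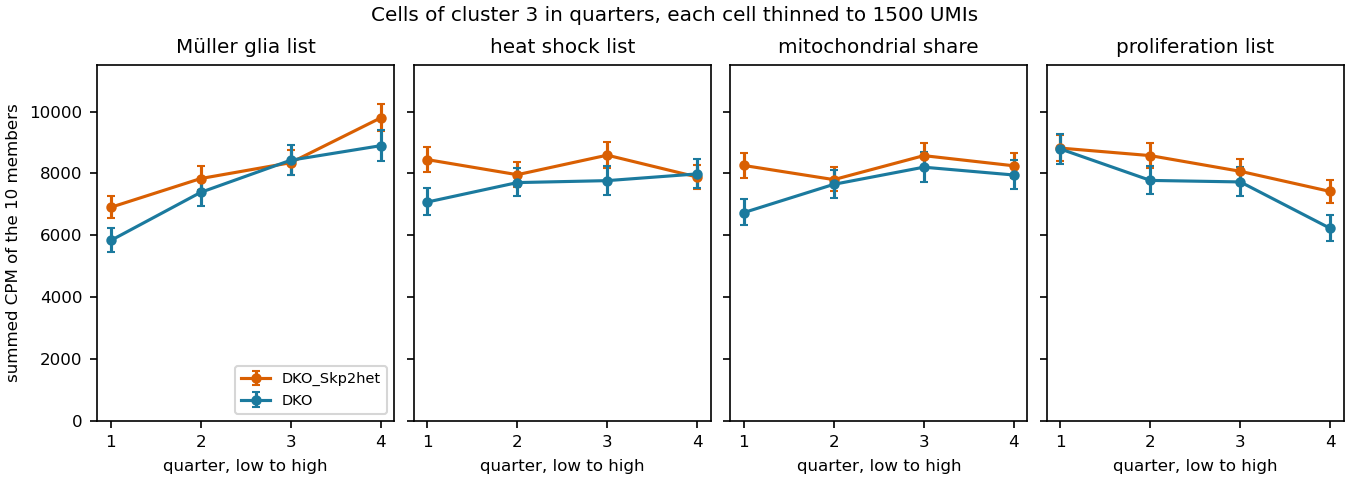
Summed CPM of the 10 members (vertical) in 4 equal bins of cluster 3 cells, ordered low to high by Müller homeostasis, heat shock, mitochondrial share and proliferation, with 95% counting intervals and each cell thinned to 1500 UMIs. The sum climbs with the glial list to 9796 CPM in DKO_Skp2het and 8898 CPM in DKO, and is lower at the high end of the proliferation list.

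Cells with the strongest mitotic profile carried far fewer immediate-early transcripts than the clusters nearest to them. Nearest was judged by mean position on the principal components used for clustering. Cluster 17, led by Cdc20, Ccnb1 and Plk1, held 71 DKO_Skp2het and 47 DKO cells and was set against cluster 2, the retinal progenitor-like cells. Its closest type by markers was Müller glia, with 6 of 10 markers above 2-fold, but it stayed unnamed. Proliferation genes stood at 17605 against 12685 CPM in DKO_Skp2het and 19280 against 12182 CPM in DKO. Fos was 675 CPM in cluster 17 of DKO_Skp2het against 2888 CPM in cluster 2, a ratio of 0.234 (0.208 to 0.262). In DKO it was 648 against 3179 CPM, a ratio of 0.204 (0.176 to 0.235). Egr1 stood at ratios of 0.245 and 0.133, Jun at 0.300 and 0.280, and Jund at 0.343 and 0.248. Ier2 stood at 358 against 756 CPM in DKO_Skp2het and at 168 against 672 CPM in DKO. All 9 members with enough counts passed 2-fold lower in both libraries, where 6.44% of genes did in DKO_Skp2het and 9.26% in DKO, and 0 passed 2-fold higher, where 4.45% and 5.67% did. The Müller homeostasis sum was 1.06-fold and 0.979-fold, close to 1, and the heat shock and stress sum was 1.40-fold in both libraries. A second mitotic cluster, 20, with 55 DKO_Skp2het and 24 DKO cells, repeated the direction against cluster 5 of the same neurogenic class. There 4 of 6 measured members passed 2-fold lower in each library, where 5.01% of genes did in DKO_Skp2het and 7.09% in DKO. Passing 2-fold higher were 0, where 4.72% and 4.15% of genes did. Clusters 17 and 20 had lower median mitochondrial shares, 2.39% and 2.03% in DKO_Skp2het and 2.24% and 1.74% in DKO, than clusters 2 and 5, at 3.32% and 3.12% in DKO_Skp2het and 3.19% and 2.99% in DKO; whether this bears on the member levels was not tested.

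Unnamed cluster 13 (105 DKO_Skp2het cells and 106 DKO cells) showed a different immediate-early pattern, with Jun and Atf3 high while Fos, Fosb, Egr1 and Nr4a1 were low. Against all other cells, Jun was 2.42-fold in DKO_Skp2het and 2.47-fold in DKO, and Atf3 7.08-fold and 6.38-fold. Fos was 0.494-fold and 0.362-fold, Fosb 0.159-fold and 0.153-fold, Egr1 0.257-fold and 0.234-fold, and Nr4a1 0.276-fold and 0.306-fold. Thus 2 of 10 members passed 2-fold higher and 4 passed 2-fold lower in each library, where 10.4% and 23.4% of genes did in DKO_Skp2het and 8.26% and 18.7% in DKO. There were 0.457 Fos UMIs per Jun UMI in DKO_Skp2het (0.406 to 0.514) and 0.460 in DKO (0.412 to 0.514), against 2.17 and 2.98 in Müller glia-like cells. Other immediate-early genes summed to 4.09-fold in DKO_Skp2het and 3.32-fold in DKO, with Myc at 45.1-fold and 23.1-fold and the stress-induced Gadd45b at 23.2-fold and 15.4-fold, but Myc, Gadd45b, Ier5l and Arc are among the genes that lead the cluster. Stress genes were also higher here, at 1.79-fold and 1.57-fold in sum, with the unfolded protein response genes Herpud1 at 9.65-fold and 7.61-fold and Hspa5 at 6.17-fold and 4.53-fold. Targets of p53 summed to 5.42-fold and 4.29-fold, with the cell cycle inhibitor Cdkn1a at 9.88-fold and 7.64-fold, while Btg2, which p53 is known to induce, stood at 0.780-fold and 0.894-fold. The median mitochondrial share of cluster 13 was 1.71% in DKO_Skp2het and 1.82% in DKO, the lowest of all clusters in DKO_Skp2het, with only cluster 20 lower in DKO, and its part in the pattern was not tested.

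Between the libraries, Jun, Ier2, Btg2, Nr4a1 and Atf3 were higher in DKO_Skp2het over all kept cells. Jun stood at 509 CPM in DKO_Skp2het and 368 CPM in DKO, a ratio of 1.38 (1.35 to 1.42). Btg2 stood at 778 and 567 CPM (1.37; 1.34 to 1.40), Ier2 at 419 and 316 CPM (1.33; 1.29 to 1.37), Nr4a1 at 40.8 and 28.6 CPM (1.43; 1.29 to 1.58) and Atf3 at 22.6 and 17.2 CPM (1.31; 1.15 to 1.49). Below 1.25-fold were Junb at 201 and 164 CPM (1.23) and Egr1 at 539 and 448 CPM (1.20). Fosb at 157 and 144 CPM (1.08), Fos at 1069 and 1037 CPM (1.03; 1.01 to 1.05) and Jund at 697 and 681 CPM (1.02; 1.00 to 1.05) were close to 1. Thus 5 of 10 members passed 1.25-fold higher, where 9.35% of 12411 genes did, and 0 passed it lower, where 5.55% did. The members' median log2 difference was 0.30, beside 0.02 over all genes. The Müller homeostasis list was also higher in DKO_Skp2het, with 17 of 18 genes above 0, 8 past 1.25-fold, and sums of 5962 and 4740 CPM, a ratio of 1.26. The heat shock and stress sum had a ratio of 1.08 and the other immediate-early genes 1.04, among which Maff stood at 1.62, Zfp36l1 at 1.39, Cyr61 at 1.37 and Klf4 at 0.725. The DKO_Skp2het library was also the shallower, and the ratios with cells thinned to 1500 UMIs are given with those by cluster. Thinning gives every cell the same weight in the sum, whereas deeper cells otherwise weigh more, so it is not a check of depth alone. Among cells at or above the lowest UMI count of DKO, the log2 ratio was 0.51 for Jun, 0.39 for Btg2 and 0.08 for Fos.

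**Figure D4:**
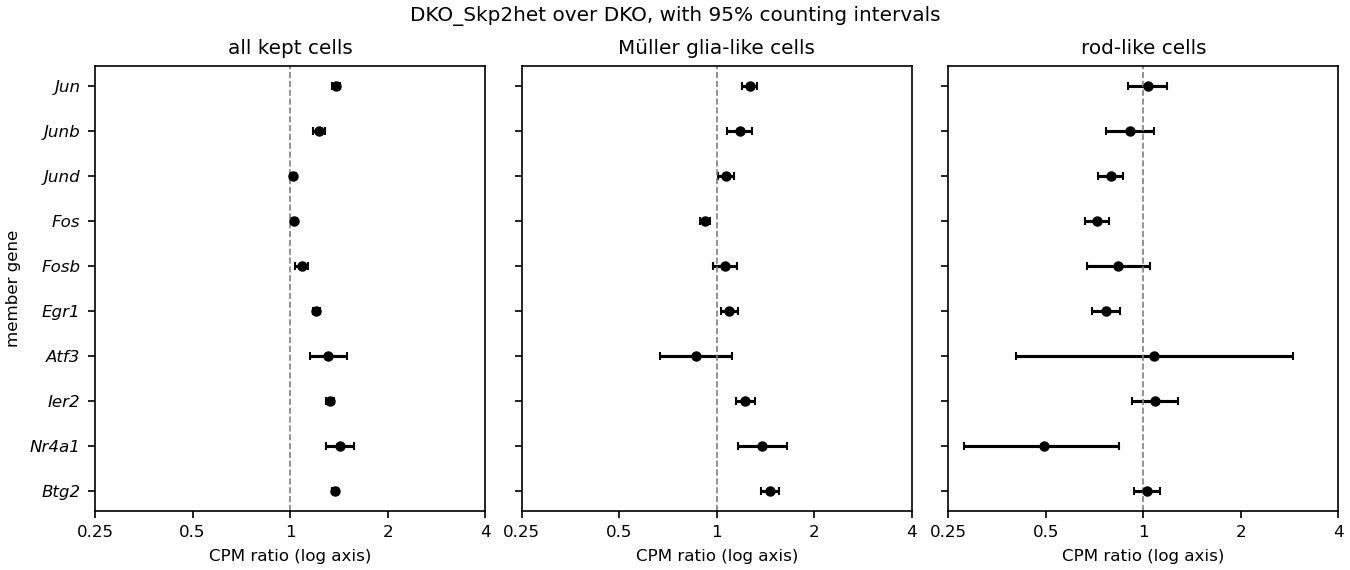
CPM ratio of DKO_Skp2het over DKO for each member (log axis) with its 95% counting interval, over all kept cells, in Müller glia-like cells and in rod-like cells. Over all kept cells the ratios lie between 1.02 and 1.43, whereas in rod-like cells Fos lies at 0.720 and Jun at 1.03.

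The libraries also differ in the sizes of their clusters, and part of the ratios moved with these. Cluster 1 held 801 DKO_Skp2het and 255 DKO cells, and cluster 4 held 531 and 176. Clusters 9 and 11 were larger in DKO, at 138 and 217 cells and 90 and 176 cells. The lowest UMI count of a kept cell was 2387 in DKO_Skp2het and 3420 in DKO. Whether this bears on the cluster sizes was not tested. With every cluster given the same weight in both libraries, Jun stood at 1.25, Btg2 at 1.28, Ier2 at 1.23, Nr4a1 at 1.18 and Atf3 at 1.36. Fos then stood at 0.896, Fosb at 0.922 and Jund at 0.967, so that these 3 were lower in DKO_Skp2het. Thinning every cell to 1500 UMIs also took Fos below 1, at a log2 ratio of -0.16, and left Jun at 0.29 and Btg2 at 0.59. Cluster by cluster, counting clusters with at least 20 UMIs of the gene, Btg2 was higher in DKO_Skp2het in 24 of 29 clusters, with 17 intervals above 1 and 0 below. It was the 1 of 9 members with 10 or more such clusters that was higher in at least 80% of them, as 4.99% of 8777 genes were, and 0 of 9 were lower in as many, as 3% of genes were. Jun was higher in 22 of 29, with 13 intervals above 1 and 0 below, and Ier2 in 19 of 28, with 12 above and 0 below. Fos went the other way, lower in DKO_Skp2het in 20 of 29 clusters, with 12 intervals below 1 and 6 above. The number of Fos UMIs per Jun UMI over all kept cells was 2.10 in DKO_Skp2het (2.06 to 2.15) and 2.82 in DKO (2.75 to 2.89).

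**Figure D5:**
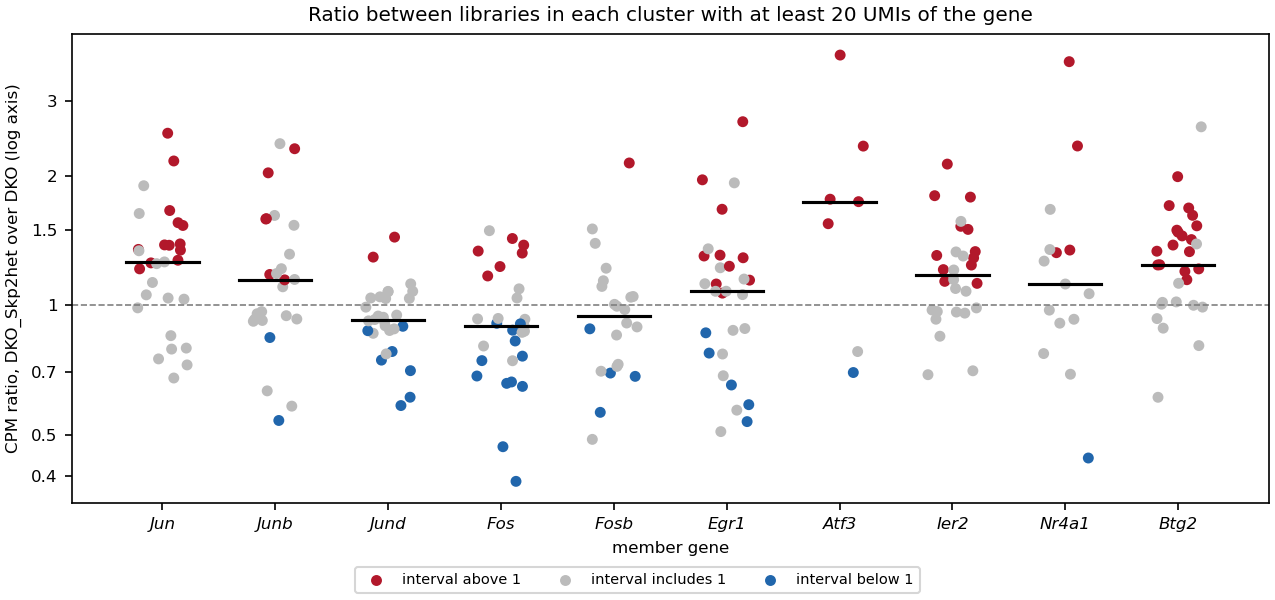
CPM ratio of DKO_Skp2het over DKO (log axis) in each cluster with at least 20 UMIs of the gene, coloured by whether the 95% counting interval lies above 1, includes 1 or lies below 1, with a bar at the median cluster. Btg2, Jun and Ier2 have 17, 13 and 12 intervals above 1 and 0 below, whereas Fos has 12 below and 6 above.

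In Müller glia-like cells the difference followed this split between Jun, Btg2 and Fos. Btg2 stood at 1089 CPM in DKO_Skp2het and 746 CPM in DKO (1.46; 1.37 to 1.56) and Jun at 1350 and 1069 CPM (1.26; 1.20 to 1.33). Fos stood at 2925 and 3182 CPM (0.919; 0.889 to 0.950). Passing 1.25-fold higher were 3 of 10 members, Jun, Btg2 and Nr4a1, where 11.5% of genes did, and 0 passed it lower, where 6.46% did. In cluster 3 alone 2 members passed 1.25-fold higher (11.3% of genes) and 1 lower (6.03%), and in cluster 16 alone 1 higher (13.6%) and 1 lower (10.9%). Jun passed it in neither, at 1.22 (1.14 to 1.30) in cluster 3 and 1.06 (0.951 to 1.18) in cluster 16. The member sum had a ratio of 1.04 in cluster 3 and 0.990 in cluster 16, whereas over the class, with its different share of cluster 16, it was 1.09. In retinal progenitor-like cells 3 of 10 members passed 1.25-fold higher (11% of genes), Atf3 at 2.35 (1.64 to 3.41), Nr4a1 at 1.35 and Jun at 1.26, and 0 passed it lower (6.25%). Btg2 stood at 1.24 and Fos at 0.909 there. Atf3 lay on the other side in cluster 3, at 0.698 (0.491 to 0.990).

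Other classes departed from this. In neurogenic precursor-like cells Fos stood at 230 CPM in DKO_Skp2het and 384 CPM in DKO (0.598; 0.530 to 0.675) while Btg2 stood at 1113 and 783 CPM (1.42; 1.33 to 1.52). Of 8 measured members, 1 passed 1.25-fold higher (10.8% of genes) and 2 lower (5.82%). In rod-like cells 3 of 8 measured members passed 1.25-fold lower, where 9.95% of genes did, and 0 higher (9.4%): Fos at 647 and 899 CPM (0.720), Egr1 at 499 and 651 CPM (0.767) and Jund at 638 and 805 CPM (0.793). Cluster 26, a rod-like group of 18 and 15 cells, carried a Müller homeostasis sum of 9295 CPM in DKO_Skp2het and 8002 CPM in DKO, against 888 and 964 CPM in the main rod-like cluster 10, and Fos stood there at 2135 and 1595 CPM. In cluster 10 alone, the Fos ratio was 0.685 (0.616 to 0.761), Egr1 0.774 and Jund 0.781. Immature neuron-like cells went the opposite way for Fos, at 351 CPM in DKO_Skp2het and 261 CPM in DKO (1.34; 1.24 to 1.46), with Ier2 at 476 and 303 CPM (1.57) and Junb at 88.1 and 54.4 CPM (1.62). There 4 of 8 measured members passed 1.25-fold higher, where 11.4% of genes did, and 0 lower (13.9%). Cluster 13 had 7 of 8 measured members past 1.25-fold higher (13.3% of genes) and 0 lower (13.4%), with Ier2 at 441 and 245 CPM (1.80). The difference between these classes was not tested.

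The remaining classes held fewer cells or no name. In unnamed cluster 1, Jun (1.38) and Btg2 (1.33) were 2 of 9 measured members past 1.25-fold higher, where 14.9% of genes were, and 0 were lower (7.15%), while Fos stood at 0.826. In unnamed cluster 4, Jun, Ier2 and Btg2 passed it higher, 3 of 7 beside 13.7% of genes, and Fos lower, at 277 CPM in DKO_Skp2het and 418 CPM in DKO, 1 of 7 beside 7.03%. Unnamed cluster 6 had Jun and Ier2 higher, 2 of 6 beside 11.5%, and Fos lower, 1 of 6 beside 8.6%. Jun and Ier2 were also the 2 of 7 higher in unnamed cluster 9, beside 10.5%, with 0 lower (8.83%). These 4 clusters thus gave Jun the same direction, and Fos stood below 1 in each. In cluster 9, at 0.895 (0.739 to 1.08), the Fos interval includes 1. In the mitotic cluster 17, 5 of 6 passed it higher, beside 12.4%, and 0 lower (9.67%), with Egr1 at 310 and 158 CPM (1.96) and Fos at 675 and 648 CPM (1.04). Bipolar-like cells had 1 of 6 higher (11.4%), Ier2, and 3 lower (13%), Jun, Jund and Fos. Amacrine-like cells had 1 of 8 higher (9.63%), Btg2, and 2 lower (9.12%), Junb and Ier2. Cone-like cells had 0 of 8 higher (12.6%) and 0 lower (13.8%). Microglia-like cells had 3 of 9 higher (15.2%), Jun, Atf3 and Btg2, and 1 lower (14.2%), Fosb.

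Fos was detected in most Müller glia-like cells. With every cell thinned to 1500 UMIs, 549 of 616 DKO_Skp2het Müller glia-like cells (89.1%; 86.4 to 91.5%) and 399 of 420 DKO cells (92.5 to 96.9%) had at least 1 Fos UMI, and without thinning 97.2% and 98.8% did, at median depths of 4101 and 4293 UMIs. The 10% of cells with the most Fos held 26.5% of its UMIs in DKO_Skp2het and 24.8% in DKO. In cluster 6, the lowest class, 11.5% of cells (8.67 to 14.9) and 12.2% (8.13 to 17.4) had a Fos UMI after thinning, at median depths of 3510.5 and 5406 UMIs before it. Free RNA can place a UMI in any cell, and this was the lowest share among the 17 classes. Rod-like cells lay between, at 48.6% (41.7 to 55.5) and 61.9% (53.9 to 69.4). Egr1 was counted in cells with and without a Fos UMI: in DKO_Skp2het, 77.2% of Müller glia-like cells with a Fos UMI also had an Egr1 UMI, against 53.7% of those without, and in rod-like cells the shares were 58.3% and 28.4%. In DKO these shares were 73.7% and 66.7% in Müller glia-like cells, whose intervals overlapped widely, and 60.6% and 36.1% in rod-like cells. Some classes showed no such difference, as in bipolar-like cells of DKO, at 21.2% and 21.8%, and microglia-like cells of DKO, at 60.0% and 62.5%, or the opposite order, as in cluster 24 of DKO_Skp2het, at 0 of 10 and 4 of 17 cells.

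The profile of each member over the same 48 points was compared with those of 8977 genes. Fos was most like Fosb (Pearson r = 0.94), Junb (0.87) and Nr4a1 (0.84), and Egr1 most like Fosb (0.84), Frmd4b (0.84) and Fos (0.82). Jun was most like Cyr61 (0.83), Junb (0.82) and Pdlim5 (0.82), and Ier2 most like Maff (0.79), Cyr61 (0.79) and Adamts1 (0.77). Atf3 was most like Ppp1r15a (0.87), a stress-induced phosphatase subunit, Zfp36 (0.79) and Egr2 (0.78), and Jund most like Rdh10 (0.84), Jun (0.81) and Maff (0.79). Btg2 had no member among its nearest genes, which were Mpdz (0.83), Fgfrl1 (0.81) and Lman1 (0.81). The points share libraries and clusters, so the values describe likeness only.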

How the data were processed

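The deposited values are UMI counts per gene and barcode for 2 libraries, made with a droplet 3′ kit per the labels' protocols. Per the submitters' processing notes, Cell Ranger 2.2.0 and mm10 were used; the filter on barcodes is not given in the sources used here. Of 27998 gene identifiers, 27645 matched the annotation used for coordinates (GRCm38).

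A minimum of 500 detected genes and a maximum mitochondrial share of 20% took out 2 DKO_Skp2het and 1 DKO barcodes, and a doublet score took out a further 216 and 105. The 4978 and 3515 kept cells were clustered on 2000 variable genes, 30 principal components and 15 neighbours (leidenalg 0.10.2, resolution 1, no integration), leaving the members and the stress and cell cycle lists out. Cluster names needed a mean log2 fold of 1 over the type's markers, 3 of these past 2-fold, and no rival type better represented in the 10 leading genes, a rule set after seeing the data.

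UMIs were summed per class and given as CPM. Ratios are DKO_Skp2het over DKO, or the named class over the other, with exact conditional intervals, and shares carry Clopper-Pearson intervals. UMIs of 1 cell are not independent, so these 95% intervals are too narrow. Log2 differences used a pseudocount of 5 CPM and understate those of low genes. Measured genes had at least 100 UMIs over both groups. The limits of 1.25-fold and 2-fold are descriptive, and 1.25 was set after seeing values. From each list, the 4 genes with the largest log2 difference were eligible to be named, and for each member the 3 most alike among genes with at least 500 UMIs. The members and lists were chosen with earlier results of these data known. Clustering used scikit-learn 1.9.0 and igraph 0.11.9, intervals scipy 1.17.1, tables pandas 2.3.3 and numpy 2.4.6, and plots matplotlib 3.10.9, all under Python 3.11.15; the scripts were checked on simulated counts.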

Additional observations from a re-analysis of the deposited data

Results flagged for a closer look

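For 6 members the ratio of DKO_Skp2het over DKO lay on opposite sides of 1 in different cell classes, with counting intervals of the classes that excluded 1 on each side. These differences between classes were not tested, since each genotype has 1 library, and they were picked as the extreme classes of each gene. Fos stood at 1.34 in immature neuron-like cells and 0.598 in neurogenic precursor-like cells. Ier2 stood at 1.57 in immature neuron-like cells and 0.713 in amacrine-like cells, and Junb at 1.62 and 0.784 in the same pair of classes. Egr1 stood at 1.17 in immature neuron-like cells and 0.767 in rod-like cells, but its clusters 7, 8 and 11 gave 1.23, 0.653 (0.439 to 0.963) and 1.68, so the immature neuron-like clusters did not share a direction. Nr4a1 stood at 2.45 in immature neuron-like cells, from 59 DKO_Skp2het and 38 DKO UMIs, and at 0.493 in rod-like cells, from 21 and 46 UMIs. Jund stood at 1.07 in Müller glia-like cells and 0.667 in bipolar-like cells, but cluster 3 gave 1.04 (0.974 to 1.10) and cluster 16 gave 0.921 (0.820 to 1.04), and both of these intervals include 1. The intervals of Ier2 in the amacrine-like clusters 12 and 18 also include 1, at ratios of 0.848 and 0.704. The immature neuron-like class joins clusters 7, 8 and 11, and cluster 11, led by Ptf1a, held 90 of its 613 DKO_Skp2het cells and 176 of its 616 DKO cells, so its make-up differed between the libraries. Within clusters 7, 8 and 11 alone the Fos ratio was 1.43, 1.32 and 1.09.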

How the results depend on the processing

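No paired analysis was possible because each genotype has 1 library and no comparison was tested. The member sum over all cells, at a ratio of 1.18, stood at 1.10 with cells thinned to 1500 UMIs, 1.15 with median-of-ratios scaling, 1.23 without Fos and, in an alternative chosen after seeing the data, 1.06 with the same cluster weights. The other immediate-early genes, at 1.04, stood at 1.06 with cells at or above the DKO minimum depth, 1.01 thinned, 1.02 with median-of-ratios scaling and 1.05 with the same weights, and turned to 0.9996 without their most abundant gene. The Müller glia-like ratio of 1.09 became 1.07 with doublets kept, 1.07 at the common depth, 1.12 thinned, 1.06 with median-of-ratios scaling, 1.19 without Fos and 1.04 under a stricter naming rule, chosen after seeing the data. It turned to 0.990 at resolution 0.5, where the class was only cluster 16 (80 and 39 cells). Under the stricter rule the class was only cluster 3 (536 and 381 cells).

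Müller glia-like cells over all others stood at 2.56 in DKO_Skp2het and 2.67 in DKO. The values were 2.49 with doublets kept (DKO_Skp2het) and 2.72 with at most 10% mitochondrial UMIs (DKO). They were 2.44 and 2.56 at the common depth, 2.52 and 2.45 thinned, 2.72 and 2.93 with median-of-ratios scaling, 4.37 and 5.06 at resolution 0.5, 2.82 and 3.10 at resolution 2.0, 2.43 and 2.57 with the stress lists kept in clustering, 2.29 and 2.28 without Fos, and 1.99 and 2.25 under the stricter naming rule. Thus every setting run kept them above 1. Of single members, the log2 ratio between libraries turned for Fos (-0.16 thinned and -0.16 with the same weights, from 0.04), Fosb (-0.017 and -0.12, from 0.12) and Jund (-0.048 with the same weights, from 0.03). The causes were not tested. Atf3 and Nr4a1 rest on the fewest UMIs of the members.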
